A study of Mus musculus with 9 samples.

Results

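Mature miRNA names with few functional studies behind them are described here across 3 genotypes of mouse subcutaneous fat: miR-3964, miR-3970 and both arms of one hairpin, miR-1843a-5p and miR-1843a-3p. These names are 4 of the 860 mature miRNAs in each library. The first 3 were chosen from their higher levels in Homo KO than in WT mice, and miR-1843a-3p was added as the other arm of its hairpin, so the difference between Homo KO and WT is given below as a description, with no test. The study sequenced small RNA from the fat under the skin of 9 mice, 3 labelled WT, 3 labelled Hete KO and 3 labelled Homo KO, each library from an individual animal. The WT mice were littermates, and the knockouts lack AGO1 in endothelial cells, on one allele as the label Hete KO is read here or on both as Homo KO is read. All groups shared a diet high in fat and sucrose, eaten for 16 weeks from 8 weeks of age, and were 24 weeks old. The sources used here give neither the transgene that restricts the knockout to endothelium nor the strain or sex, and the files hold miRNAs only, so the loss of Ago1 itself was not checked.

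A miRNA is a short RNA cut from a hairpin, and either side of the hairpin, the 5p or the 3p arm, can be loaded into an Argonaute protein such as AGO1. The loaded strand finds its target mRNAs mostly through its seed, bases 2 to 8. Small nucleolar RNAs and their relatives in Cajal bodies, the scaRNAs, guide chemical modification of other RNAs, and some of them are also cut into pieces that are counted as miRNAs. In whole tissue a level is a mean over adipocytes, vessels, blood cells and stroma, and fewer cells of a type cannot be told apart from less of the RNA in each cell.

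RefSeq's table for GRCm38.p6 held a mature sequence for 3 of the 4 names. They are shown because each has its own seed, in capitals here, which no other mature miRNA of that table has.
miR-3964: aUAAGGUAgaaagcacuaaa
miR-1843a-5p: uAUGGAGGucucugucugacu
miR-1843a-3p: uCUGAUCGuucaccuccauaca

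The hairpin sequences show where the members come from. In Mir1843a the capitals are the 5p and 3p arms, and in Mir3970 they are the stretch that lines up with a let-7 miRNA, described below.
Mir1843a: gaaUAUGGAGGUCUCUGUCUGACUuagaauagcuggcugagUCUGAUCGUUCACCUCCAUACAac
Mir3970: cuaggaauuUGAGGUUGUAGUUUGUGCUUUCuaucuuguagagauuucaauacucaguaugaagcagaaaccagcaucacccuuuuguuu

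The loci were read from GENCODE vM21 on GRCm38, the assembly named mm10 by the study. Mir1843a (ENSMUSG00000105972.1, chromosome 12, 80391613 to 80391677, minus strand) lies in an intron of Dcaf5, which encodes a substrate receptor of a ubiquitin ligase. The whole hairpin is also part of the scaRNA gene Scarna3b (80391613 to 80391751, same strand) and overlaps the exon of a noncoding transcript, CT030161.1. Mir3970 (ENSMUSG00000106278.1, chromosome 19, 33157112 to 33157201, plus strand) lies in an intron of Rnls, the gene of the flavoprotein renalase, on the strand opposite to that gene. Mir3964 (ENSMUSG00000092639.1, chromosome 15, 29713331 to 29713404, minus strand) is intergenic, with no annotated gene within 10 kb and with Ctnnd2, which encodes delta-catenin, as the nearest protein-coding gene at 459189 bp. No other annotated miRNA hairpin lies within 10 kb of any of these 3 hairpins or inside the host genes Dcaf5 and Rnls.

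Each member has a close relative in sequence. Alignments had no gaps and covered at least 16 bases, and up to 3 mismatches were allowed, a limit set after these sequences were seen. All 3 members with a mature sequence had such a relative in the files, as did 134 of the 405 tested miRNAs with a sequence (33.1%). In the pairs below, capitals mark the bases that differ within the aligned part.
miR-3964: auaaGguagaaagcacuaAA
miR-142a-5p: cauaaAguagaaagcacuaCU
miR-1843a-5p: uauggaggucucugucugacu
miR-1843b-5p: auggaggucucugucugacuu
miR-1843a-3p: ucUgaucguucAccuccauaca
miR-1843b-3p: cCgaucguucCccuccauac
Mir3970 hairpin bases 10 to 31: ugagguUguaguuugugcuUuC
let-7i-5p: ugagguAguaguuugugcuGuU

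miR-3964 matched miR-142a-5p, a miRNA of blood cells, at 17 of 20 aligned bases, and the substitutions were G5A, A19C and A20U, counted from the 5′ end of miR-3964. miR-1843a-5p and miR-1843b-5p shared 20 of 20 aligned bases and were offset by 1 base, so that their seeds read AUGGAGG and UGGAGGU. The 3p arms of the pair shared 18 of 20 bases (U3C and A12C, counted from the 5′ end of miR-1843a-3p). In the hairpin of miR-3970 a stretch of 22 bases matched let-7i-5p, one of the abundant let-7 miRNAs, at 19 positions (U7A, U20G and C22U, counted from the first base of that stretch). How the authors shared out reads that match more than 1 of these sequences was not stated, and its part in the results was not tested.

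The level of each miRNA is a deposited value, read here from the values themselves as log2(x + 1) after quantile normalization, in which libraries end up with one common distribution of values. The normalization is not named in the sources. The top 100 ranked values were identical in all 9 libraries, those of the top 400 differed by at most 0.12, and low ranks differed more, with a lowest value of 0.22 in Hete KO replicate 2 and Homo KO replicate 2 and 0 elsewhere. A level is therefore close to a position in a shared ranking, a difference of 1 is a doubling of x + 1, and the number of reads is unknown. A miRNA was tested if its mean over all libraries reached 3.46 and if 3 or more libraries had it above their own minimum. All 4 members passed this filter, among 489 of 860, and the lowest level of any member in any library was 5.55. Levels of other cell types varied between libraries: the mean of 4 skeletal muscle miRNAs was highest in WT replicates 1 and 2 and Hete KO replicate 2 (13.40, 13.73 and 14.35) and between 6.17 and 11.68 elsewhere, and miR-206-3p of that list was at the lowest value in at least 1 library. From 63 to 152 miRNAs per library were at its lowest value, the only trace of depth, with 63 to 104 in WT and 101 to 152 in the knockouts. All 4 miRNAs listed as abundant in adipose tissue (miR-378a-3p, miR-193b-3p, miR-103-3p and miR-30a-5p) were present in all 9 libraries, though none of them is exclusive to fat.

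miR-3964 was the member with the widest separation of the genotypes. The WT mice had levels of 6.02, 6.14 and 6.08, in the order of replicates 1, 2 and 3, the Hete KO mice 6.77, 6.57 and 7.41, and the Homo KO mice 7.66, 8.13 and 7.90. The 3 genotypes did not overlap, and the order was WT, Hete KO, Homo KO. The means were 6.08 ± 0.06, 6.92 ± 0.44 and 7.89 ± 0.24 (SD, n = 3 mice each). In rank, miR-3964 stood between 306 and 317 of 860 in WT and between 200 and 221 in Homo KO. The described difference between Homo KO and WT was 1.82 ± 0.23 on the log2 scale (SE).

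miR-3970 was at 6.91, 7.30 and 7.53 in WT, at 8.21, 8.02 and 8.30 in Hete KO and at 8.39, 8.28 and 8.13 in Homo KO. Both knockout genotypes lay above all WT mice, and they overlapped each other. The means were 7.25 ± 0.31, 8.18 ± 0.14 and 8.27 ± 0.13 (SD, n = 3 mice each), and the described difference between Homo KO and WT was 1.02 ± 0.18 (SE). Without the 3 muscle-rich libraries named above, which leaves 1 WT mouse, it was 0.74 ± 0.18.

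miR-1843a-5p was the most abundant of the 4, at 9.48, 9.95 and 9.65 in WT, 10.29, 10.09 and 10.19 in Hete KO and 10.42, 10.32 and 10.32 in Homo KO. The genotypes did not overlap here either, although the lowest Homo KO mice (10.32) and the highest Hete KO mouse (10.29) were almost level. The means were 9.69 ± 0.24, 10.19 ± 0.10 and 10.35 ± 0.05 (SD, n = 3 mice each), with a described difference between Homo KO and WT of 0.66 ± 0.15 (SE).

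Some summed levels of cell type markers, though not all of the means over the same lists, were apart between WT and both knockouts, as miR-3964, miR-3970 and miR-1843a-5p were. The summed level of 7 epithelial miRNAs, the miR-200 family with miR-203-3p and miR-205-5p, was 11.79 to 12.23 in WT, 12.90 to 12.97 in Hete KO and 12.80 to 12.96 in Homo KO, with 7 of 7 and 6 of 7 members above their WT mean. That of the 4 adipose miRNAs was 18.31 to 18.43, 18.53 to 18.66 and 18.50 to 18.66, with 4 of 4 and 2 of 4 above. The other way round, the endothelial miR-126a arms summed to 17.81 to 18.20 in WT, 17.10 to 17.74 in Hete KO and 17.64 to 17.77 in Homo KO, with both arms below their WT mean in each knockout. The 3 erythroid miRNAs summed to 13.48 to 14.15 in WT, 12.14 to 13.46 in Hete KO and 13.03 to 13.48 in Homo KO, with 0 of 3 and 1 of 3 above, so that the sums of WT and Homo KO all but met. As means over the list, the libraries of WT overlapped those of both knockouts for the adipose list (13.78 to 14.12 in WT, 13.97 to 14.39 in Hete KO, 13.91 to 14.18 in Homo KO), those of Hete KO for the epithelial list (5.62 to 6.03 against 5.91 to 8.97) and those of both knockouts for the erythroid list (11.01 to 11.55 against 9.67 to 11.26 and 10.75 to 11.19). None of these markers was at the lowest value in any library. The sums for liver, neural, and fibroblast and mural miRNAs overlapped between WT and each knockout. The part of these cells in the levels of the members was not tested.

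The other arm of miR-1843a varied more between libraries. miR-1843a-3p was at 5.92, 5.55 and 6.36 in WT, 5.95, 7.05 and 6.56 in Hete KO and 5.74, 6.33 and 6.65 in Homo KO, so that all 3 genotypes overlapped. The means were 5.94 ± 0.41, 6.52 ± 0.55 and 6.24 ± 0.46 (SD, n = 3 mice each). The described difference between Homo KO and WT was 0.29 ± 0.34 (SE), and it was -0.12 ± 0.44 without the 3 muscle-rich libraries.

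**Figure D1:**
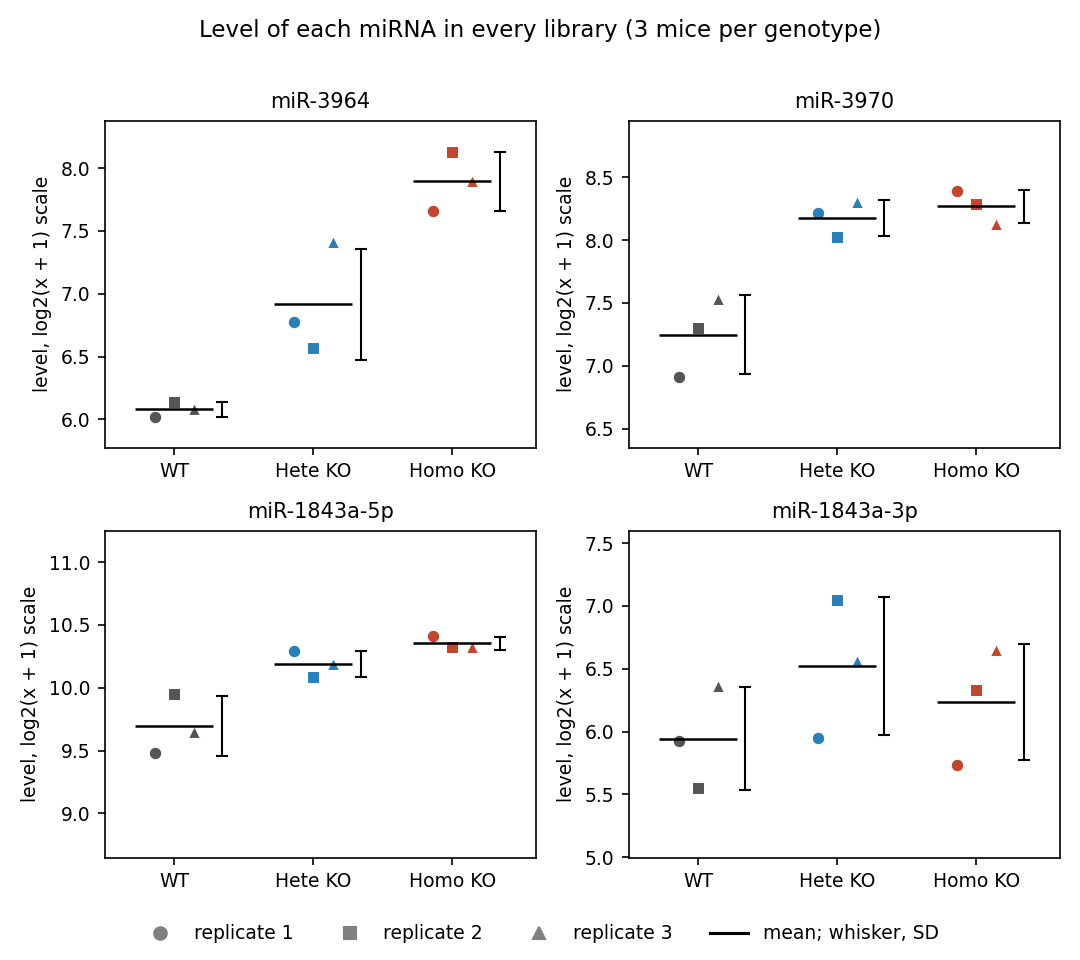
Level of each member on the log2(x + 1) scale (vertical axes, each spanning the same width) in every library by genotype; points are mice with a shape for each replicate number, horizontal lines are means and whiskers the SD over 3 mice. miR-3964 runs from 6.02 to 8.13 with the genotypes apart, miR-3970 and miR-1843a-5p are higher in both knockouts than in WT, and miR-1843a-3p overlaps throughout.

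No test of the members is given between Homo KO and WT, because 3 of the 4 were listed for their higher levels there. Over all 489 miRNAs, 3.27% were called in that comparison in either direction (limma, Benjamini-Hochberg adjusted p under 0.05). All 3 Homo KO mice lay above all 3 WT mice in 18.4%. Nothing is read from these shares, because this comparison chose the members.

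The question of dose is what the loss of one allele does against the loss of both. The levels of the Hete KO mice did not enter the difference that chose the members, but these mice entered the estimate of spread behind its calls, and the WT mice are shared. None of the 4 members passed the test in it by limma, while 0.409% of the 489 miRNAs did, and 3 of the 4 had an unadjusted p under 0.05, as had 77 of the 489. miR-3970 had a log2 difference of 0.93 ± 0.18 (SE, limma adjusted p = 0.0548), a 1.91-fold higher x + 1. For miR-3964 the difference was 0.84 ± 0.23 (adjusted p = 0.101), for miR-1843a-5p 0.50 ± 0.15 (adjusted p = 0.122) and for miR-1843a-3p 0.57 ± 0.34 (adjusted p = 0.44). The value of miR-1843a-3p was 0.31 without Hete KO replicate 2, 0.38 without WT replicate 2 and 0.86 without Hete KO replicate 1. In 3 of the 4, all but miR-1843a-3p, every Hete KO mouse lay above every WT mouse, as in 8.59% of all miRNAs tested. These 3 were chosen for levels that were low in the same WT mice against Homo KO, which favours higher differences here. The counts of members are therefore not a like comparison with those over all miRNAs, and nothing is read from them.

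The value of miR-3970 in Hete KO lay close to the threshold, and 4 settings moved it across while 15 did not. It passed without WT replicate 3 (1.07 ± 0.18, limma adjusted p = 0.0328) or without Hete KO replicate 1 (0.91 ± 0.21, adjusted p = 0.0437). A filter that asked for a mean of log2(100 + 1) also brought it past the threshold (adjusted p = 0.0369), as did the replicate block (adjusted p = 0.0447). With the depth trace, the count of miRNAs at the minimum, in the model the difference was 0.996 ± 0.248 (limma adjusted p = 0.245). Without the 3 muscle-rich libraries, which leaves 1 WT mouse, it was 0.73 ± 0.19. The highest adjusted p of all settings came without WT replicate 1 (0.76 ± 0.18, limma adjusted p = 0.307).

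Homo KO against Hete KO shares the Homo KO mice with the comparison that chose the members, which favours higher values here for those chosen by it. Here miR-3964 stood apart from the other members, with a log2 difference of 0.98 ± 0.23 (SE, 95% confidence interval 0.47 to 1.49), which did not pass over all miRNAs (limma adjusted p = 0.509, unadjusted p = 0.00187). It was not alone in this, since its relative miR-142a-5p, described below, was also higher in every Homo KO mouse than in every Hete KO mouse. For miR-3970 the difference was 0.09 ± 0.18 (-0.32 to 0.50, adjusted p = 0.95), for miR-1843a-5p 0.16 ± 0.15 (-0.17 to 0.49, adjusted p = 0.831) and for miR-1843a-3p -0.28 ± 0.34 (-1.05 to 0.49, adjusted p = 0.905). With 1 library left out the last of these ran from -0.57 (without Hete KO replicate 1) to -0.019 (without Hete KO replicate 2), and it was -0.031 without Homo KO replicate 1 and -0.49 without Homo KO replicate 3. Every Homo KO mouse lay above every Hete KO mouse in miR-3964 and miR-1843a-5p, 2 of the 4, against 9.0% of all miRNAs tested. For miR-1843a-5p the nearest mice were almost level (10.32 and 10.29), and in its relative miR-1843b-5p, described below, these genotypes overlapped. Because the Homo KO mice also entered the choice of the members, nothing is read from this count. Of the 489 miRNAs, 0% were called in this comparison by limma, and 41 had an unadjusted p under 0.05.

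Where Hete KO lies between WT and Homo KO was tested against their midpoint on the log2 scale. With equal groups, this difference is orthogonal to the one that chose the members. miR-3964 in Hete KO was -0.07 ± 0.20 from the midpoint (SE, 95% confidence interval -0.52 to 0.37, limma adjusted p = 0.92), and its difference from WT was 46.1% of that of Homo KO. The sign of that small value turned without Hete KO replicate 1 (0.0013) or without Hete KO replicate 2 (0.10), and without Hete KO replicate 3 it was -0.32.

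miR-3970 in Hete KO lay 0.42 ± 0.16 above the midpoint (0.07 to 0.77, limma adjusted p = 0.534, unadjusted p = 0.0246), having 91.2% of the difference of Homo KO. miR-1843a-5p was 0.17 ± 0.13 above it (-0.12 to 0.45, adjusted p = 0.737), with 75.2% of the difference of Homo KO. miR-1843a-3p was 0.43 ± 0.30 above (-0.24 to 1.09, adjusted p = 0.689), and this value was 0.71 without Hete KO replicate 1 and 0.17 without Hete KO replicate 2. No member passed, nor did any other miRNA (0% called by limma, 44 of 489 at an unadjusted p under 0.05). Differences between members in this position were not tested. The percentages, that of miR-3964 included, divide by the difference that chose the members, which the choice favours to be large. They have no interval and are a description only.

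**Figure D2:**
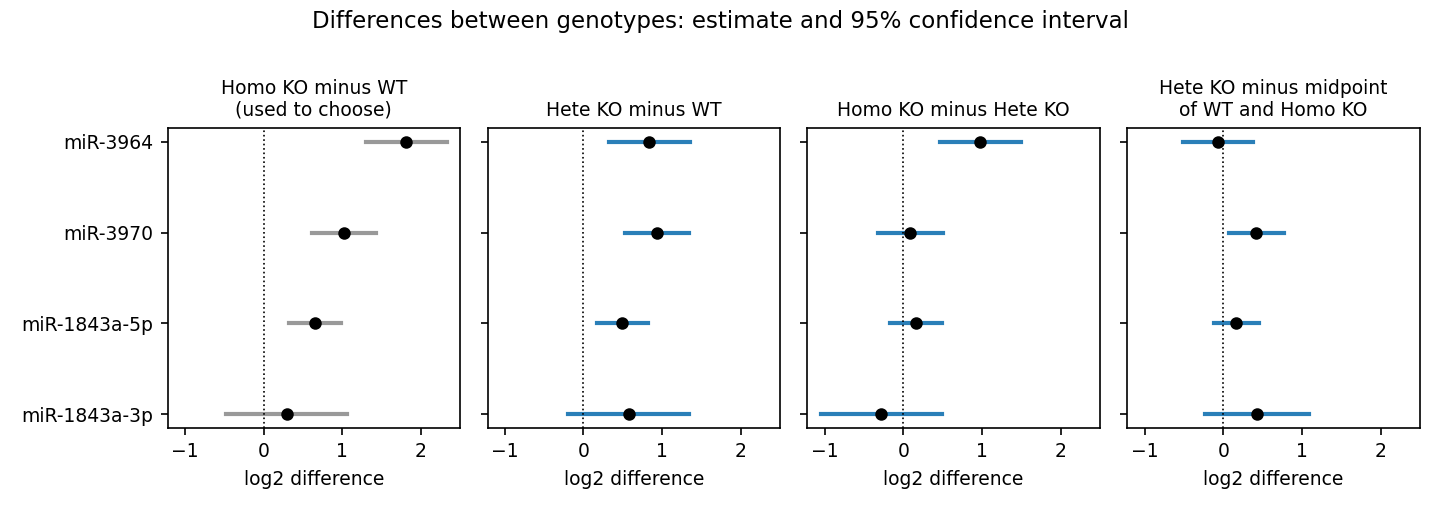
Log2 differences between genotypes (horizontal axes, dots) with 95% confidence intervals from limma (lines) for the 4 members, in the comparison that chose them (grey) and in 3 others (blue). miR-3964 is the member whose interval for Homo KO minus Hete KO, 0.47 to 1.49, lies wholly above 0, and miR-3970 the one whose interval against the midpoint, 0.07 to 0.77, does. Neither passed over all miRNAs (limma adjusted p = 0.509 and 0.534). Homo KO minus Hete KO shares the Homo KO mice with the choosing comparison, and Hete KO minus WT the WT mice. This sharing favours higher values for the members chosen by it.

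miR-1843a gives both arms of its hairpin, 21 and 22 bases long, in the same library. The 5p arm shares 20 of 20 aligned bases with miR-1843b-5p, so its level may hold reads from both hairpins, while the 3p arms differ at 2 bases. The part of such reads in the arm difference was not tested. The 5p arm exceeded the 3p arm by 3.56, 4.40 and 3.29 on the log2 scale in WT replicates 1, 2 and 3, by 4.34, 3.04 and 3.63 in Hete KO and by 4.68, 3.99 and 3.68 in Homo KO. The 5p arm was thus the abundant one in 9 of 9 libraries, and the 3 genotypes overlapped. The means of this arm difference were 3.75 ± 0.58, 3.67 ± 0.65 and 4.12 ± 0.51 (SD, n = 3 mice each). Hete KO differed from WT by -0.08 (exact permutation test, two-sided p = 0.9) and Homo KO from Hete KO by 0.44 (exact permutation test, two-sided p = 0.4), where 3 mice against 3 cannot give less than 0.1. The difference between Hete KO and WT was 0.23 without Hete KO replicate 2 and 0.25 without WT replicate 2. That between Homo KO and Hete KO was 0.13 without Hete KO replicate 2, 0.16 without Homo KO replicate 1, 0.66 without Homo KO replicate 3 and 0.78 without Hete KO replicate 1.

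**Figure D3:**
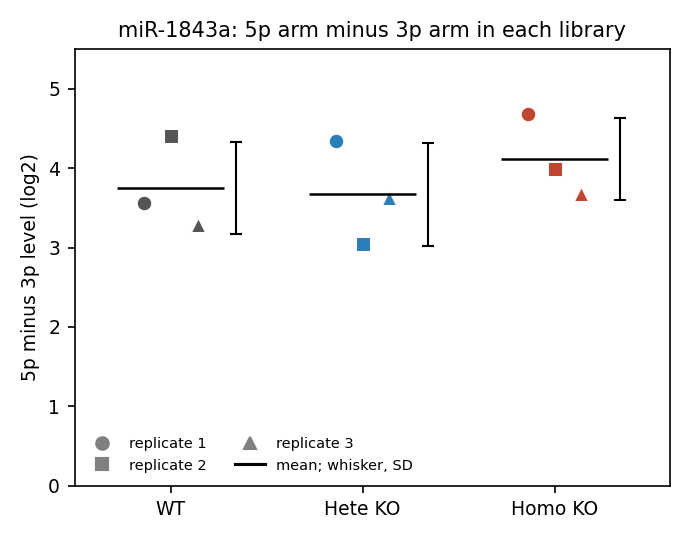
The level of miR-1843a-5p minus that of miR-1843a-3p (vertical axis, log2) in each library by genotype; points are mice, lines means and whiskers the SD over 3 mice. All 9 values lie between 3.04 and 4.68, and the genotypes overlap. The level of the 5p arm may hold reads of miR-1843b-5p, which shares 20 of 20 aligned bases with it.

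The relatives in sequence were set beside the members to show which pairs varied together. miR-142a-5p was at 10.58, 10.56 and 10.58 in WT, 11.47, 10.39 and 11.24 in Hete KO and 11.85, 12.02 and 11.63 in Homo KO. It was thus in the same order as miR-3964, with the exception of Hete KO replicate 2, which was below WT for miR-142a-5p and above it for miR-3964. Over the 9 libraries the pair had a Pearson correlation of 0.904, and of 0.50 for deviations from the genotype means, with library and genotype shared by all points. miR-3964 lay far below its relative, at a mean of 6.96 against 11.15.

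miR-142a-5p differed between Homo KO and WT by 1.26 ± 0.25 (SE), beside 1.82 for miR-3964. The choice of the members favours a large value for miR-3964 here, so these values are not a like comparison. In Hete KO the difference of miR-142a-5p from WT was 0.46 ± 0.25 (SE, limma adjusted p = 0.397). Between Homo KO and Hete KO it was 0.80 ± 0.25 (SE, limma adjusted p = 0.509), and that of miR-142a-3p was 0.72 ± 0.27 (adjusted p = 0.593). The other arm, miR-142a-3p, was at means of 12.12, 11.62 and 12.34 in WT, Hete KO and Homo KO. Leukocyte markers had the same direction in Homo KO, where 5 of 6 had a higher mean than in WT, against 3 of 6 in Hete KO. Their summed level was 14.40 to 14.49 in WT, 14.14 to 14.63 in Hete KO and 14.68 to 15.02 in Homo KO, with none of the 6 at the lowest value. That list holds miR-142a-5p itself and also miR-142a-3p, and the part of these cells in the level of miR-3964 was not tested.

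let-7i-5p, the relative of the miR-3970 hairpin, stayed near one level. It was at 14.82 ± 0.07 in WT, 14.77 ± 0.32 in Hete KO and 14.84 ± 0.10 in Homo KO (SD, n = 3 mice each), with a difference of -0.05 ± 0.16 in Hete KO (SE, 95% confidence interval -0.41 to 0.31, limma adjusted p = 0.907) and 0.02 ± 0.16 in Homo KO. Across the 9 libraries its correlation with miR-3970 was 0.03. let-7g-5p, which matched the same stretch of the hairpin at 17 of 22 bases, did vary with miR-3970. Its correlation with miR-3970 was 0.89, and 0.57 within genotypes. It was at 15.79 ± 0.13 in WT, 16.01 ± 0.06 in Hete KO and 16.13 ± 0.07 in Homo KO (SD, n = 3 mice each). Another miRNA that resembles the let-7 family, miR-3962 (16 of 20 bases shared with the miR-3970 hairpin), was at 8.82 ± 0.26 in WT, 9.35 ± 0.08 in Hete KO and 9.44 ± 0.10 in Homo KO, and had a correlation of 0.90 with miR-3970. Its difference from WT in Hete KO was 0.53 ± 0.16 (SE, adjusted p = 0.122).

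miR-1843b comes from Mir1843b on chromosome 1 (159340358 to 159340423, plus strand), in an intron of Cop1, the gene of a ubiquitin ligase, and overlaps the scaRNA gene Scarna3a. Both miR-1843 hairpins therefore lie in a pair of related scaRNA genes inside introns of different hosts. miR-1843b-5p was at 9.58, 10.01 and 9.67 in WT, 10.34, 10.06 and 10.24 in Hete KO and 10.45, 10.29 and 10.34 in Homo KO, at most 0.098 away from miR-1843a-5p in any of the 9 libraries. The correlation of the 5p arms of both hairpins was 0.993 over the 9 libraries and 0.97 within genotypes. How reads were shared between them was not tested. The 3p arms had a correlation of 0.44, and miR-1843b-3p was at 4.996 ± 0.296, 5.36 ± 0.36 and 5.41 ± 0.04 in WT, Hete KO and Homo KO (SD, n = 3 mice each).

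**Figure D4:**
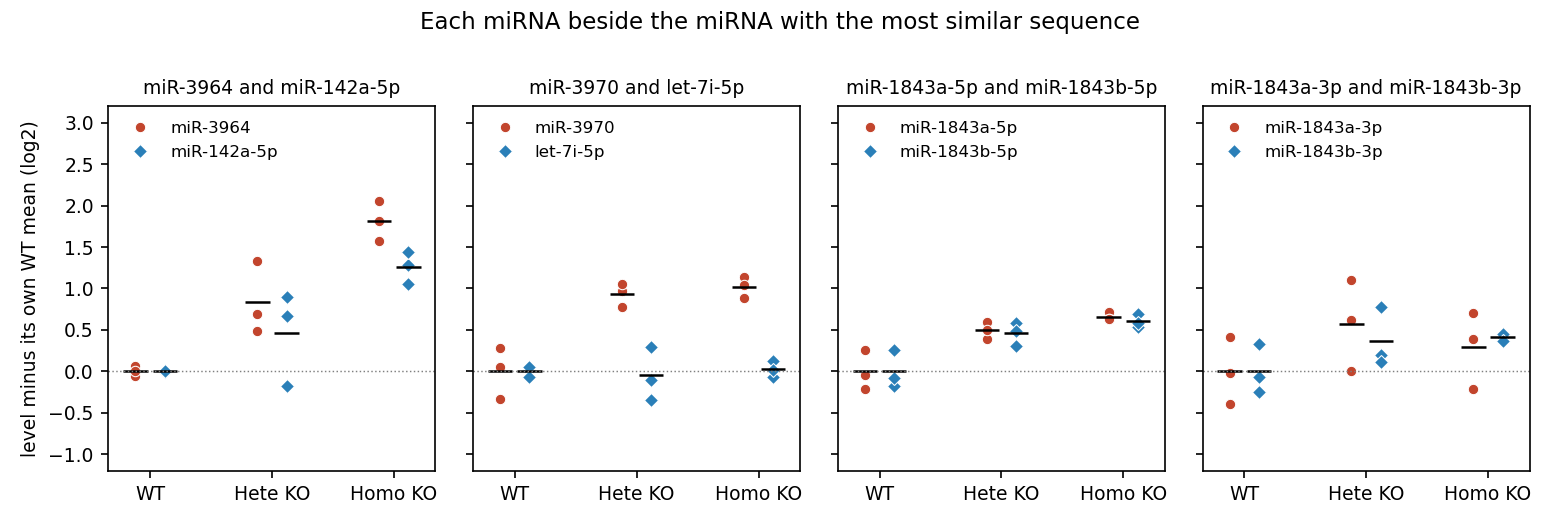
Level of each member (circles) and of the miRNA most similar to it in sequence (diamonds; for miR-3970, to its hairpin), minus the WT mean of that miRNA (vertical axis, log2), in every library by genotype; black lines are means. miR-142a-5p lies above its WT mean by 1.26 in Homo KO against 1.82 for miR-3964, let-7i-5p by 0.02 against 1.02 for miR-3970, and the 5p arms of miR-1843a and miR-1843b nearly coincide. Homo KO minus WT chose the members other than miR-1843a-3p, which favours large values for them, and the differences within pairs were not tested.

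The patterns most like those of the members over the 9 libraries were found among all tested miRNAs by Pearson correlation, as a description in which all points share 3 genotypes. For miR-3964 they were miR-99a-5p (0.919), miR-142a-5p and let-7g-5p (0.877). For miR-3970 they were miR-30a-3p (0.945), miR-24-2-5p (0.937) and miR-186-5p (0.937), and of these miR-24-2-5p kept a correlation of 0.92 within genotypes. miR-1843a-5p was most like miR-1843b-5p, miR-30e-5p (0.940) and miR-872-5p (0.926). miR-1843a-3p was most like miR-196a-5p (0.932), miR-203-5p (0.929) and miR-196b-5p (0.905), and these were 0.91, 0.94 and 0.88 within genotypes, so that its likeness lay in the differences between mice of one genotype.

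Among the members themselves, miR-3970 and miR-1843a-5p had a correlation of 0.92 and miR-3964 and miR-3970 one of 0.82. Within genotypes these were 0.53 and 0.29. The arms of miR-1843a had a correlation of 0.13, and of -0.63 within genotypes.

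Other late-numbered miRNAs, those whose number is 1800 or above, were compared as a group picked by name. There were 40 of them among the tested miRNAs besides the members. None was called in any of the 4 comparisons by limma, and 8 had an unadjusted p under 0.05 in Homo KO against WT, 7 in Hete KO against WT, 3 in Homo KO against Hete KO and 4 against the midpoint, beside 117, 77, 41 and 44 of all 489. In Hete KO against WT 27 of 40 were positive with a median difference of 0.22, beside 231 of 489 and a median of -0.02 over all miRNAs. In Homo KO against WT 28 of 40 were positive with a median of 0.22, beside 269 of 489 and 0.07. Both comparisons share the WT mice.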

How the data were processed

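The authors deposited 1 value per mature miRNA and library on a log2 scale. Despite a file name that speaks of FPKM, the values are logarithms from 0 to 19.99 with the same maximum in all 9 libraries, as quantile normalization gives. The genome build was mm10, per the submitters' processing notes; RNA was extracted with Trizol and made into TruSeq small RNA libraries, per the labels' protocols; the sources used here do not name the aligner, the counting or the normalization. Members and lists were chosen with earlier results of these data known.

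Genotypes were compared in limma 3.58.1 under R 4.3.3 (eBayes with a variance trend, all 9 libraries, no covariate) on the deposited values with no pseudocount added; p-values were adjusted by Benjamini-Hochberg over 489 miRNAs, leaving out 371 low ones. Of these steps, only the limma fit was tested on simulated data, for Hete KO against WT. Arm differences were compared by exact permutation tests (scipy 1.17.1). The miRNAs named are the members, the 3 with the most similar pattern for each, miR-1843b, sequence relatives and the late-numbered list. The relatives miR-142a, let-7i-5p, let-7g-5p and miR-3962 were named after their values were seen. Of 9 marker lists fixed, each is given in the report. Alternatives were another offset, a stricter filter or none, median scaling, no trend, only the groups compared, the replicate block, muscle or depth covariates and libraries left out.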

Additional observations from a re-analysis of the deposited data

How the results depend on the processing

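The members' differences are limited by 3 mice a group and an unknown read depth. In Homo KO against WT the difference of miR-3964 was 1.63 with the muscle mean as a covariate, and without the 3 muscle-rich libraries (WT replicates 1 and 2 and Hete KO replicate 2) that of miR-3970 was 0.74 and that of miR-1843a-3p -0.12; leaving out 1 library gave 1.70 to 1.93, 0.85 to 1.16, 0.55 to 0.79 and 0.09 to 0.54 for miR-3964, miR-3970, miR-1843a-5p and miR-1843a-3p. In Hete KO against WT miR-3970 passed with the stricter filter and with the replicate block (0.93 in both) and without WT replicate 3 or Hete KO replicate 1 (range over libraries left out 0.76 to 1.07), and miR-1843a-3p was at -0.11 without the 3 muscle-rich libraries. Homo KO minus Hete KO of miR-3970 was -0.00038 with the muscle covariate. Against the midpoint, without the 3 muscle-rich libraries, miR-3964 was at 0.10 and miR-1843a-3p at -0.043; leaving out 1 library gave -0.32 to 0.10 for miR-3964. The arm difference between Homo KO and WT was -2 as a difference of ranks, and that between Hete KO and WT ranged from -0.41 to 0.25 with 1 library left out. The cause was not tested in any of these.

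The number of miRNAs called in Homo KO against WT was 16, and 9 with no filter, 25 with the stricter filter or the replicate block, 3 with the muscle covariate, 0 with the depth covariate, 8 without the 3 muscle-rich libraries and 2 to 25 with 1 library left out (3 and 7 without WT replicates 1 and 2, 25 and 6 without Hete KO replicates 2 and 3, 2, 3 and 2 without Homo KO replicates 1, 2 and 3). In Hete KO against WT it was 2, and 10 with the stricter filter or without the muscle-rich libraries, 1 with no trend or only the groups compared, 15 with the replicate block, 0 with the depth covariate and 1 to 24 with 1 library left out (24 without Hete KO replicate 1, 12 without WT replicate 3, 1 without WT replicate 1, Hete KO replicate 2, Hete KO replicate 3 or Homo KO replicate 3). For Homo KO against Hete KO it was 0, and 4 without the muscle-rich libraries; against the midpoint it was 0, with 1 under no trend, 9 without the muscle-rich libraries and 0 to 1 with 1 library left out.

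The labels give same-numbered mice only a number in common, and whether they share more is not known. The correlation of their deviations was over 0.1 in 5 of 9 pairs (range -0.28 to 0.55). Pairs of replicate 3 were at 0.41, 0.55 and 0.38, and those of replicates 1 and 2 had both signs. In 8 of 18 cases a library correlated best with its own number. The replicate block changed no other call of a member.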
